A study of Homo sapiens with 24 samples.

Results

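WARS1 encodes the cytosolic tryptophanyl-tRNA synthetase and AIMP2 a scaffold protein of the multi-synthetase complex. Their RNA was followed in 24 libraries of HGC27, an established cell line from a human gastric carcinoma, as 2 of the 61578 gene entries in each library. WARS1 was read under the entry ENSG00000258666 and AIMP2 under the entry EIF2AK1, because the counts lie on the strand opposite to the gene that made the RNA. Both genes were chosen by measured values, the strong fall of their log2 CPM with LPDS in SG12 relative to SGCTRL, so every value that involves SG12 or SGCTRL libraries is a description of these 2 genes with no test. The tests given for them compare SG21 and Parental libraries, with the spread estimated over all 24 libraries.

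The 8 groups were 4 lines in 2 media with 3 libraries each, after culture for 3 days in high glucose DMEM. The lines SG12 and SG21 carry the genotype label TMEM97 Knockout, SGCTRL carries the label SG Control, WT, and the remaining line carries the genotype label Parental. TMEM97 is a membrane protein of sterol handling, also known as the sigma-2 receptor. LPDS, which usually stands for lipoprotein-deficient serum, and FBS, fetal bovine serum, are the media. The labels name SG12 and SG21 without saying whether either is a single clone, and they give no guide sequence, so the target site is not known here. Replicates are called independent biological samples with no statement of what was separate, and p-values measure the spread between these libraries.

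Aminoacyl-tRNA synthetases join each amino acid to its tRNA, and WARS1 does so for tryptophan in the cytosol. WARS1 is known to be induced by interferon-gamma and, like many synthetases, by the transcription factor ATF4, which acts downstream of kinases that phosphorylate eIF2 under amino acid or ER stress. AIMP2 holds several synthetases together with AIMP1 and EEF1E1 in 1 large complex, and WARS1 is not among the synthetases of that complex. EIF2AK1, also called HRI, is the heme-regulated eIF2 kinase, and its gene runs tail to tail into AIMP2.

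The RNA measured is the part of each gene that the opposite-strand entry covers. WARS1 lies on chromosome 14 from 100333788 to 100376805 on the minus strand (GRCh38, GENCODE 29). ENSG00000258666 is annotated as an antisense transcript from 100333790 to 100354061 on the plus strand. It has 385 exon bases, and each lies over an exon of some annotated WARS1 transcript. Its first exon covers the 3' UTR of the last WARS1 exon, and its last exon reaches over a coding exon, exon 6 of 11 in WARS-202. The 5' end of exon 6 in WARS-202 is at 100353869, and ENSG00000258666 runs on to 100354061. The bases past exon 6 are not part of that exon, so ENSG00000258666 can also hold unspliced WARS1 RNA. AIMP2 lies on chromosome 7 from 6009245 to 6023834 on the plus strand, and EIF2AK1 from 6022244 to 6059230 on the minus strand. They share 532 bases, the whole of exon 4 of 4 of AIMP2, which holds the end of its coding sequence and its 3' UTR. A further 1059 exon bases of EIF2AK1 lie over the last AIMP2 intron, so the entry can also hold unspliced AIMP2 RNA.

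The coding bases that produce reads under each entry show part of what was counted. They are the 79 coding bases of WARS1 at chr14:100353791-100353869 (minus strand) and the first 150 of 386 coding bases of AIMP2 at chr7:6023303-6023452 (plus strand), both from GENCODE 29 transcripts and written 5' to 3'.
WARS1 coding: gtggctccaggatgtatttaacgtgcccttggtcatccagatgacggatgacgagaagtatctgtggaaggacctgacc
AIMP2 coding: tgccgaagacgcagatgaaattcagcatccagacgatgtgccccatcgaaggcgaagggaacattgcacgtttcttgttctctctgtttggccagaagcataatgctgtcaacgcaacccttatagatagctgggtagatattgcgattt

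The start sites of both genes were searched for motifs of factors that act on tRNA charging genes. That both changed in the same direction is how they were chosen and is not a result. The windows are from RefSeq (GRCh38.p14), 250 bases before to 50 after a start site, and capitals mark motif matches. WARS1 has 2 windows, the first at chr14:100376278-100376577 and the second further into the gene at chr14:100375298-100375597, both on the minus strand. For AIMP2 the bases next to its first start site are shown, chr7:6009132-6009321 on the plus strand.
WARS1 window 1: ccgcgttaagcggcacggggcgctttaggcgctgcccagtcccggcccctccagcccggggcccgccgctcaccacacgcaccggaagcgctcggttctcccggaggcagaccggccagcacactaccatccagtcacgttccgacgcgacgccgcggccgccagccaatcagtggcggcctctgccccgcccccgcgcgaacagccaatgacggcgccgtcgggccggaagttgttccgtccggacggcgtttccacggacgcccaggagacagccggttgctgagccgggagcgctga
WARS1 window 2: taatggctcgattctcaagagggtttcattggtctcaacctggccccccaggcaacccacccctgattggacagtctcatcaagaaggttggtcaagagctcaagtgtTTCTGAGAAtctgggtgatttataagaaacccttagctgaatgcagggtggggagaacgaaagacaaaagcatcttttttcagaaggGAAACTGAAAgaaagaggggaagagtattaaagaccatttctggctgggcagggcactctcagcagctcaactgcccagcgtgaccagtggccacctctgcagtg
AIMP2 window 1, -140 to 49: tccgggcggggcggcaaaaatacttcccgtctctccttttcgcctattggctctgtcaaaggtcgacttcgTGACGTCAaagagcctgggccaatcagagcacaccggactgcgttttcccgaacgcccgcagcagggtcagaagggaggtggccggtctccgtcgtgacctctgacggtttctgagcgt
Positions count from 0 at the start site. TGATGNAA, the core of the element bound by C/EBP and ATF4 dimers, matched on neither strand of any of the 3 windows or of a second AIMP2 window, and 3.62% of all 35116 promoter windows hold it. TGACGTCA, the cAMP response element, matched in AIMP2 window 1 from -69 to -62, and 1.85% of windows hold it. WARS1 window 2 held TTCNNNGAA, the STAT dimer motif, from -142 to -134 and the core of the interferon response element, GAAA followed by any 2 bases and GAAA again, from -55 to -46, which 7.66% and 3.57% of windows hold. CCAAT, the NF-Y motif, not shown in capitals, matched at 2 places in each WARS1 window and at 3 in the whole of AIMP2 window 1, from -172 to -168, outside the bases shown, from -95 to -91 and from -50 to -46, and 34.6% of windows hold it. Both strands were searched, and no 2 of these matches overlap. A match is a description of letters and was not tested for binding.

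The libraries held 2.4 to 5.54 M reads on genes and 44.1 to 102 M reads with a unique alignment, and all levels are counts per M reads on genes (CPM). The WARS1 entry held 728 to 3997 reads per library and the AIMP2 entry 2926 to 10451. Over all entries, FBS replicate 3 of SG12, LPDS replicate 1 of SG21 and FBS replicate 2 of Parental stood apart from the other replicates of their groups, with chi-square values per degree of freedom of 9.36 to 14.7 against 2.77 to 5.72 for all other pairs. Ambiguous reads, set against the reads on genes, came to 2.10% to 2.24% in 8 libraries, all 6 of SGCTRL and LPDS replicates 2 and 3 of SG21, and 2.58% to 3.15% in the other 16, which is called the library split here. Entries of protein-coding genes with no gene opposite held 3.05% to 4.56% of the reads on genes, called the leaked share. TMEM97 RNA (row IFT20, which overlaps its 3' end) averaged 190 ± 16.2 CPM in SG12 in LPDS and 51.6 ± 4.44 CPM in SG12 in FBS (SD, n = 3 each), and 126 ± 9.45 CPM in SG21 in LPDS and 75.4 ± 1.85 CPM in SG21 in FBS. In SGCTRL it averaged 160 ± 6.13 CPM in LPDS and 129 ± 10.8 CPM in FBS, and in Parental 153 ± 15.7 CPM in LPDS and 106 ± 15.8 CPM in FBS. RNA at the 3' end does not check an edit elsewhere in the gene. The cells are labelled epithelial, and only CDH3 of 8 epithelial markers could be read on the opposite strand, at 8.72 CPM. VIM (row VIM-AS1), a mesenchymal filament protein, was at 23667 CPM.

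WARS1 RNA was lowest of all groups in SG12 in LPDS and highest in SG12 in FBS. It was at 277, 266 and 232 CPM in the 3 SG12 libraries in LPDS, against 1267, 1263 and 1097 CPM in SG12 in FBS. No other group had a library outside the range from 303 to 568 CPM. SG21 had 470, 496 and 492 CPM in LPDS, against 360, 303 and 349 CPM in FBS. SGCTRL had 568, 522 and 505 CPM in LPDS, against 410, 422 and 413 CPM in FBS, and Parental had 487, 488 and 497 CPM in LPDS, against 391, 328 and 396 CPM in FBS. In SG21, SGCTRL and Parental every LPDS library lay above every FBS library of the same line, and in SG12 every LPDS library lay below every FBS library. No share of all entries is given for such separation, here or below, so it is a description only. Ordered by mean, the groups ran from SG12 in FBS (1209 ± 97.3 CPM, SD, n = 3) through SGCTRL in LPDS (532 ± 32.5), Parental in LPDS (491 ± 5.45), SG21 in LPDS (486 ± 13.8), SGCTRL in FBS (415 ± 6.39), Parental in FBS (372 ± 37.5) and SG21 in FBS (337 ± 30.3) to SG12 in LPDS (258 ± 23.0). The libraries of neighbours in this order overlapped only between SG21 and Parental, in LPDS and again in FBS.

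**Figure D1:**
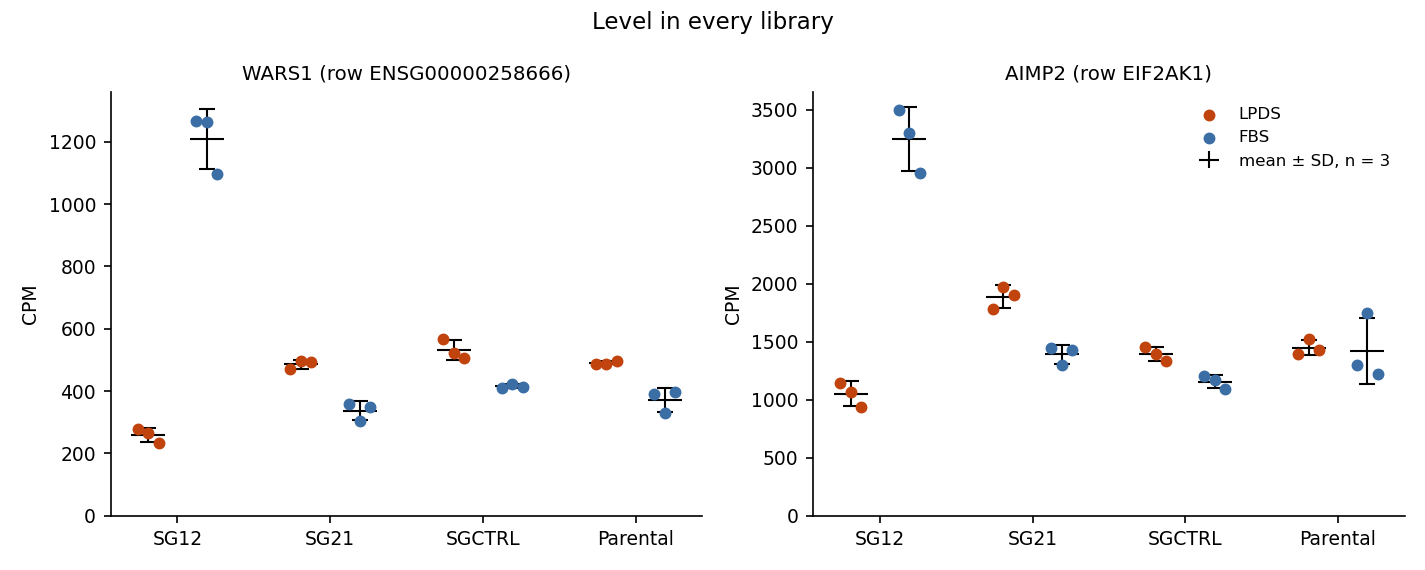
Level of WARS1 (left, row ENSG00000258666) and AIMP2 (right, row EIF2AK1) in CPM, with 1 point per library, by line and medium, and the mean and SD of 3 libraries as lines. SG12 in FBS stands highest for both genes (1209 and 3251 CPM), and SG12 in LPDS lowest (258 and 1050 CPM).

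AIMP2 RNA was likewise highest in SG12 in FBS and had its lowest mean in SG12 in LPDS. It was at 1148, 1068 and 934 CPM in SG12 in LPDS, against 3495, 3303 and 2955 CPM in SG12 in FBS. SG21 had 1781, 1976 and 1905 CPM in LPDS, against 1442, 1299 and 1430 CPM in FBS. These 2 pairs of groups did not overlap, and neither did those of SGCTRL, at 1455, 1397 and 1334 CPM in LPDS, against 1204, 1170 and 1097 CPM in FBS. Parental had 1397, 1523 and 1430 CPM in LPDS, against 1298, 1745 and 1222 CPM in FBS. There the groups overlapped, since FBS replicate 2, a library that stood apart over all entries, was above all 3 LPDS libraries. By mean level SG12 in FBS (3251 ± 274 CPM, SD, n = 3) was followed by SG21 in LPDS (1887 ± 98.5) and, with overlapping libraries, by Parental in LPDS (1450 ± 65.6), Parental in FBS (1422 ± 282), SGCTRL in LPDS (1396 ± 60.3) and SG21 in FBS (1390 ± 79.3). SGCTRL in FBS (1157 ± 55.0) and SG12 in LPDS (1050 ± 108) came last and overlapped each other.

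WARS1 rose with LPDS in the 2 lines where its response could be tested. In SG21 the log2 fold change of LPDS over FBS was 0.49 ± 0.10 (SE), a ratio of 1.41 (edgeR adjusted p = 0.00210, higher in 3 of 3 libraries). In Parental it was 0.41 ± 0.10, a ratio of 1.33 (edgeR adjusted p = 0.0121, higher in 3 of 3 libraries). These calls stand beside 3.76% of all 12822 entries tested that were called in SG21 (1.81% higher, 1.95% lower) and 4.67% in Parental (2.18% higher, 2.49% lower). The SG21 call did not hold once the library split was a term in the model (0.48, edgeR adjusted p = 0.0911). The Parental call was lost without FBS replicate 2 (0.32, edgeR adjusted p = 0.128), with a spread from its own 6 libraries (0.43, edgeR adjusted p = 0.0548) and with the leaked share as a covariate (0.18, edgeR adjusted p = 0.685), and that share was 3.47% to 3.65% in Parental in LPDS and 3.8% to 4.56% in Parental in FBS, whose part in the result was not tested.

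No difference in WARS1 between SG21 and Parental passed the test in either medium. The log2 fold change of SG21 over Parental was -0.04 ± 0.10 in LPDS (edgeR adjusted p = 0.852, 95% interval -0.23 to 0.15) and -0.12 ± 0.10 in FBS (edgeR adjusted p = 0.398, 95% interval -0.32 to 0.07). Of all entries 11.3% were called between these lines in LPDS (5.9% higher, 5.41% lower) and 24.1% in FBS (11% higher, 13.1% lower). Their LPDS responses differed by 0.08 ± 0.14 (edgeR adjusted p = 0.840, 95% interval -0.19 to 0.36), where 0.835% of entries were called (0.273% higher, 0.562% lower). With the leaked share as a covariate the FBS difference became a call at -0.39 (edgeR adjusted p = 0.0472).

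AIMP2 rose with LPDS in SG21, and its value in Parental was close to 0. The log2 fold change was 0.41 ± 0.10 in SG21, a ratio of 1.33 (edgeR adjusted p = 0.0164, higher in 3 of 3 libraries), and 0.04 ± 0.10 in Parental (edgeR adjusted p = 0.884, 95% interval -0.16 to 0.24). In LPDS, AIMP2 was higher in SG21 than in Parental by 0.36 ± 0.10, a ratio of 1.28 (edgeR adjusted p = 0.0173, higher in 3 of 3 libraries), and in FBS the difference was -0.01 ± 0.10 (edgeR adjusted p = 0.937, 95% interval -0.21 to 0.19). The difference between the responses was 0.37 ± 0.14 and did not pass (edgeR adjusted p = 0.209). Neither call held once the library split was a term in the model, at 0.36 (edgeR adjusted p = 0.323) for the response and 0.31 (edgeR adjusted p = 0.206) for the difference in LPDS. The response was not called without SG21 FBS replicate 2 (0.34, edgeR adjusted p = 0.120) or SG21 LPDS replicate 2 (0.37, edgeR adjusted p = 0.0929), and the difference in LPDS was not called without SG21 LPDS replicate 2 (0.26, edgeR adjusted p = 0.165), Parental LPDS replicate 1 (0.34, edgeR adjusted p = 0.0620) or Parental LPDS replicate 3 (0.28, edgeR adjusted p = 0.133). Without Parental FBS replicate 2 the Parental response was 0.20 (edgeR adjusted p = 0.362) and the difference in FBS was 0.15 (edgeR adjusted p = 0.309).

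In SG12 both genes ran the other way with LPDS, the pattern for which they were chosen. The log2 fold change of LPDS over FBS was -2.23 ± 0.10 for WARS1 and -1.63 ± 0.10 for AIMP2 in SG12, against 0.37 ± 0.10 and 0.28 ± 0.10 in SGCTRL. Without SG12 FBS replicate 3, the values in SG12 were -2.37 and -1.78. The response in SG12 minus that in SGCTRL was -2.59 ± 0.14 for WARS1, in position 4 from the most negative of 2862 protein-coding source genes, and -1.91 ± 0.15 for AIMP2, in position 12. Of all entries 10.4% were called in this contrast (5.08% higher, 5.3% lower), from which nothing is read here since the contrast chose both genes. The rule set no threshold. HSD17B2 (-2.79) and DSC1 (-2.65) stood before WARS1 and SAMD11 (-2.35) and PIDD1 (-2.29) after it, while CA5B (-2.01) and CCDC113 (-2.01) stood before AIMP2 and TRAK2 (-1.87) and ZFAND1 (-1.83) after it.

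**Figure D2:**
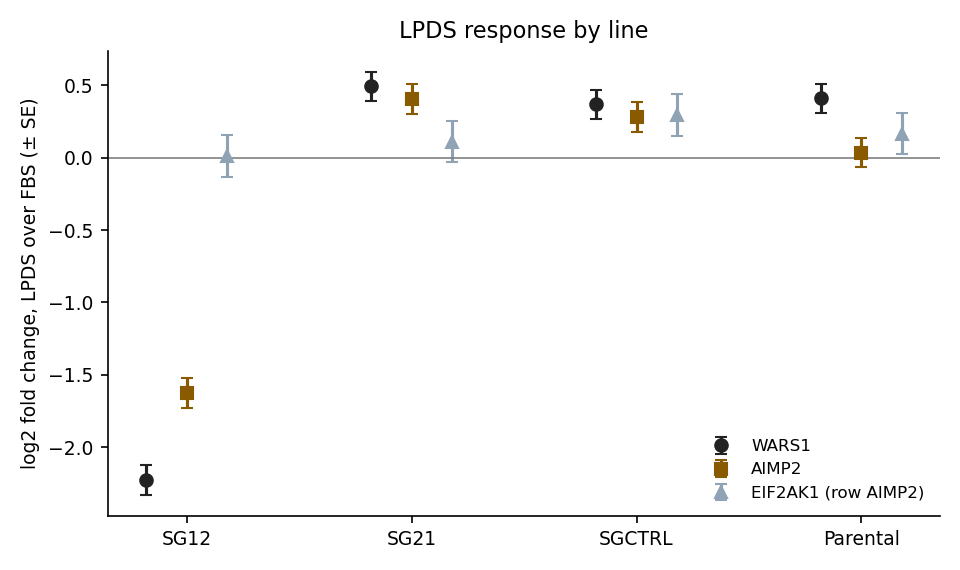
Log2 fold change of LPDS over FBS (error bars, SE) by line for WARS1, AIMP2 and EIF2AK1 (row AIMP2). In SG12 WARS1 and AIMP2 sit at -2.23 and -1.63 with EIF2AK1 at 0.02, and in SG21, SGCTRL and Parental the values of all 3 genes lie between 0.04 and 0.49.

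Set against the other lines, SG12 stood further away in FBS than in LPDS. In FBS, WARS1 was higher in SG12 than in SGCTRL by 1.56 ± 0.10 (log2), than in Parental by 1.74 ± 0.10 and than in SG21 by 1.87 ± 0.10. In LPDS it was lower in SG12, at -1.03 ± 0.10 against SGCTRL, -0.89 ± 0.10 against Parental and -0.85 ± 0.10 against SG21. AIMP2 stood higher in SG12 in FBS by 1.51 ± 0.10 against SGCTRL, 1.23 ± 0.10 against Parental and 1.25 ± 0.10 against SG21, and lower in LPDS by values of -0.40 ± 0.10, -0.43 ± 0.10 and -0.79 ± 0.10 against the same lines. SG21 is the other line labelled TMEM97 Knockout. Its WARS1 value against SGCTRL was -0.18 ± 0.10 in LPDS and -0.30 ± 0.10 in FBS, and its AIMP2 value was 0.39 ± 0.10 in LPDS and 0.26 ± 0.10 in FBS. These contrasts share the SG12 and SGCTRL libraries of the rule and carry no test. All SGCTRL libraries lay on the side of the library split with fewer ambiguous reads. All SG12 libraries and all SG21 libraries in FBS lay on the other side. Line and split thus cannot be told apart against SGCTRL, except in part for SG21 in LPDS. With the split as a term, entries called went from 3234 to 784 for SG12 over SGCTRL in FBS. In LPDS they went from 1402 to 181. For SG21 over SGCTRL they went from 1810 to 150 in FBS and from 1370 to 1194 in LPDS.

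Other entries at the WARS1 locus held few reads. ENSG00000258521 and ENSG00000258581, a processed pseudogene, lie wholly in introns of WARS1 with 552 and 293 exon bases, and averaged 6.6 and 6.15 CPM. ENSG00000258581 was at 3.07, 4.59 and 5.11 CPM in SG12 in LPDS, against 17.3, 10.7 and 27.6 CPM in SG12 in FBS. All 3 FBS libraries of SG12 were above every other library of the series. ENSG00000258521 was at 7.69, 4.59 and 5.75 CPM in SG12 in LPDS, against 11.2, 9.80 and 18.2 CPM in SG12 in FBS, where again no other library of the series reached the lowest of the 3. The log2 fold changes of LPDS over FBS in SG12 were -2.11 ± 0.40 for ENSG00000258581 and -1.10 ± 0.40 for ENSG00000258521. In the same order they were 0.21 ± 0.40 and -0.13 ± 0.42 in SGCTRL. In SG21 they were 0.13 (edgeR adjusted p = 0.925) and 0.10 (edgeR adjusted p = 0.939), again in this order. In Parental they were 1.03 (edgeR adjusted p = 0.199) and 1.05 (edgeR adjusted p = 0.188), and none of those tested passed. The entry with the name WARS1, which holds reads on the strand opposite to the gene and averaged 21.1 CPM, was at -1.14 ± 0.23 in SG12, 0.35 ± 0.23 in SGCTRL, 0.52 ± 0.24 in SG21 (edgeR adjusted p = 0.251) and 0.64 ± 0.23 in Parental (edgeR adjusted p = 0.0971). WDR25, which overlaps 287 bases of the 5' end of WARS1, averaged 0.583 CPM, too few reads to follow.

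**Figure D3:**
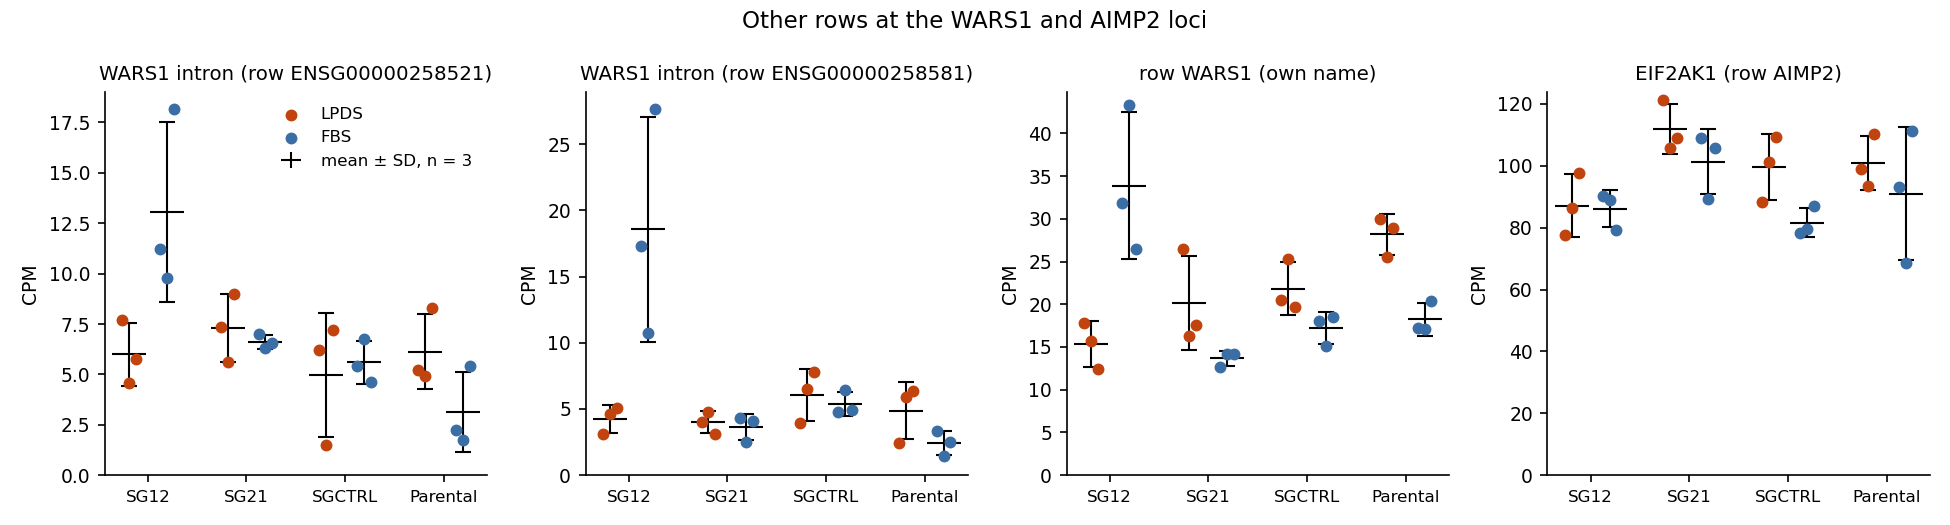
CPM in every library, with the mean and SD of 3 libraries, for 2 entries in WARS1 introns, the entry named WARS1 and EIF2AK1 (row AIMP2). The intron entries are highest in SG12 in FBS (means 13.1 and 18.6 CPM), and EIF2AK1 stays between 68.5 and 121 CPM.

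EIF2AK1, the neighbour of AIMP2 and an eIF2 kinase, was not called with LPDS in SG21 or Parental, and its value in SG12 was close to 0. Read under the entry AIMP2 through the same 532 shared bases, it was at 77.5, 86.2 and 97.7 CPM in SG12 in LPDS, against 90.3, 88.8 and 79.4 CPM in SG12 in FBS. The SG12 groups overlapped, and so did those of SG21 and Parental, while all 3 LPDS libraries of SGCTRL (88.3, 101 and 109 CPM) lay above its FBS libraries (78.4, 79.5 and 86.9 CPM). The log2 fold change of LPDS over FBS was 0.02 ± 0.14 in SG12, 0.11 ± 0.14 in SG21 (edgeR adjusted p = 0.756), 0.30 ± 0.14 in SGCTRL and 0.17 ± 0.14 in Parental (edgeR adjusted p = 0.557). The entry AIMP2 spans all exons of AIMP2, so it can also hold AIMP2 reads counted on the wrong strand. Their part in these values was not tested. ANKRD61, an entry inside introns of EIF2AK1, was at 0.91 ± 0.24 in SG12, -0.51 ± 0.23 in SG21 (edgeR adjusted p = 0.248), -0.66 ± 0.23 in SGCTRL and -0.01 ± 0.24 in Parental (edgeR adjusted p = 0.986). Of the other genes near the 2 loci, 4 of a list of 13 could be read, EIF2AK1 among them. None was called with LPDS in SG21, SGCTRL or Parental, where 3.76%, 2.25% and 4.67% of all entries were called. In SG12, where 10.9% of entries were called lower, CCZ1 (row RSPH10B), which has a near-identical copy that can share its reads, fell by 0.62 on the log2 scale.

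Few other synthetase genes could be read on the opposite strand. Of 20 cytosolic synthetases described here 3 besides WARS1 were read, CARS1, MARS1 and YARS1, which charge tRNA with cysteine, methionine and tyrosine. None was called with LPDS in SG21, Parental or SGCTRL, where 3.76%, 4.67% and 2.25% of all entries were called (1.29% higher and 0.967% lower in SGCTRL), and the medians of the 3 were -0.04, 0.18 and -0.44 beside 0.01, -0.01 and 0.00 for all entries. In SG12, where 22.5% of entries were called (11.6% higher, 10.9% lower), 1 of the 3 fell and none rose, with a median of -0.11 beside 0.02 for all entries. MARS1, read under the entry DDIT3, averaged 117 ± 15.0 CPM in SG12 in LPDS and 214 ± 16.5 CPM in SG12 in FBS (SD, n = 3 each), a log2 fold change of -0.87 ± 0.13 (edgeR adjusted p = 6.30e-06). The libraries of the 2 SG12 groups did not overlap for MARS1. CARS1 (-0.11) and YARS1 (-0.03) were not called in SG12. CARS1 alone of the 3 was called higher in SG21 than in Parental, both in LPDS and in FBS, where 5.9% and 11% of entries were called higher.

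Of 20 mitochondrial synthetase genes and assembly factors described here 4 were read, and 1 of the 4 was called with LPDS in SG12, where 22.5% of all entries were called, a share near that of the 4. AIMP1 (row TBCK), the only other scaffold gene that could be read of 3 in the list, was called in no line, with log2 fold changes of LPDS over FBS of 0.22 ± 0.20 in SG12, -0.14 ± 0.20 in SG21, 0.14 ± 0.20 in SGCTRL and 0.26 ± 0.20 in Parental. WARS2 (row WARS2-AS1), the mitochondrial enzyme for tryptophan, was at 0.06 ± 0.21 in SG12 (edgeR adjusted p = 0.877), 0.09 in SG21, 0.26 in SGCTRL and -0.04 in Parental, and it was not called in any of them. CARS2 (row ING1), for cysteine, rose by 1.01 ± 0.27 in SG12 (edgeR adjusted p = 0.00563), with means of 37.9 ± 6.46 CPM in LPDS and 18.8 ± 6.43 CPM in FBS (SD, n = 3 each), and was not called without SG12 FBS replicate 2 (0.70, edgeR adjusted p = 0.101). None of the 4 was called with LPDS in SG21, SGCTRL or Parental, where 3.76%, 2.25% and 4.67% of all entries were called.

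Of 17 eIF2 kinases, eIF2 and eIF2B subunits and regulators 5 were read, and with LPDS in SG12 1 of the 5 rose and 1 fell, where 11.6% of all entries were called higher and 10.9% lower. EIF2AK3, also called PERK, the eIF2 kinase of the ER (row ENSG00000225420), rose with LPDS by 0.62 ± 0.11 in SG12 (edgeR adjusted p = 0.000117) and by 0.44 ± 0.11 in SGCTRL (edgeR adjusted p = 0.0234). It averaged 162 ± 16.8 CPM in SG12 in LPDS and 106 ± 3.26 CPM in SG12 in FBS (SD, n = 3 each). EIF2B2, a subunit of the eIF2 exchange factor (row ENSG00000258646), fell by 0.67 ± 0.11 in SG12 (edgeR adjusted p = 2.49e-05). It was the only 1 of the 5 called with LPDS in SG12 in that direction, and EIF2AK3 was the only 1 of the 5 called in SGCTRL, where 1.29% of all entries were called higher. None of the 5 was called in SG21 or Parental, where 3.76% and 4.67% of all entries were called. EIF2AK2, also called PKR, was at 0.16 ± 0.17 in SG12 and was not called in any line.

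Genes that respond to ATF4 or to amino acid supply were lower with LPDS in SG12 and in part higher in SG21 and Parental. In SGCTRL their median log2 fold change was -0.06. Of 38 listed genes 11 were read. In SG12, 8 of the 11 fell and none rose, with a median log2 fold change of -0.87 beside 0.02 for all entries, of which 10.9% were called lower. SLC7A11 (row SLC7A11-AS1), the cystine transporter, averaged 204 ± 19.1 CPM in SG12 in LPDS and 439 ± 10.1 CPM in SG12 in FBS (SD, n = 3 each), at -1.10 ± 0.11 (edgeR adjusted p = 1.46e-09). MTHFD2 (row ENSG00000264324), a mitochondrial folate enzyme, averaged 1450 ± 88.1 CPM in SG12 in LPDS and 3033 ± 270 CPM in SG12 in FBS, at -1.06 ± 0.08 (edgeR adjusted p = 1.63e-12). SLC1A5 (row ENSG00000275719), a glutamine transporter, fell by 0.87 ± 0.13 on the log2 scale (edgeR adjusted p = 3.74e-06). SLC7A5 (row ENSG00000260466), a transporter of large neutral amino acids that carries tryptophan, averaged 514 ± 26 CPM in SG12 in LPDS and 1152 ± 113 CPM in SG12 in FBS, at -1.16 ± 0.16 (edgeR adjusted p = 8.35e-07). For SLC7A11, MTHFD2, SLC1A5 and SLC7A5 every SG12 library in LPDS lay below every SG12 library in FBS. In SGCTRL, in LPDS and FBS, SLC7A11 averaged 386 and 379 CPM and MTHFD2 2423 and 2551 CPM. SLC1A5 averaged 1457 and 1597 CPM there, and SLC7A5 1042 and 1316 CPM. In LPDS, SG12 was below SGCTRL for each of these genes (SLC1A5, 843 CPM). In FBS, SG12 was above SGCTRL for SLC7A11 and MTHFD2, but not for SLC1A5 (1546 CPM) or SLC7A5. WARS1 and AIMP2, in contrast, stood further from SGCTRL in FBS than in LPDS. The count of 8 was 9 without SG12 FBS replicate 3 and 7 to 10 over all alternatives run.

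In SG21, 4 of the 11 rose with LPDS and none fell, with a median of 0.37 beside 0.01 for all entries, of which 1.81% were called higher. They were SLC7A11 at 0.77 ± 0.11 (edgeR adjusted p = 1.99e-05), SLC1A5 at 0.63 ± 0.13 (edgeR adjusted p = 0.00249), CEBPB (row CEBPB-AS1), a transcription factor, at 1.02 ± 0.29 (edgeR adjusted p = 0.0359) and PYCR1 (row ENSG00000263585), an enzyme of proline synthesis, at 0.44 ± 0.12 (edgeR adjusted p = 0.0318). SLC7A11 averaged 363 ± 30.9 CPM in SG21 in LPDS and 208 ± 8.56 CPM in SG21 in FBS (SD, n = 3 each). CEBPB ran from 23.5 to 84.4 CPM in SG21 in LPDS and from 23.0 to 31.6 CPM in SG21 in FBS, so the groups overlapped, and it was at 0.53 (edgeR adjusted p = 0.465) without SG21 LPDS replicate 2. Its call was also lost by the DESeq2 Wald test (adjusted p = 0.0626), with the leaked share as a covariate, with the groups of the comparison alone and without any 1 of the other SG21 libraries except LPDS replicate 1. The PYCR1 call was lost with the leaked share as a covariate (edgeR adjusted p = 0.0752) and with the groups of the comparison alone (edgeR adjusted p = 0.0674). It was also lost without SG21 FBS replicate 1 or 2, and without SG21 LPDS replicate 2 or 3. Once the library split was a term in the model, SLC7A11 alone was still called of these 4, and CEBPB turned to -0.18 (edgeR adjusted p = 0.918), and without SG21 LPDS replicate 2 the count was likewise 1, while without SG21 LPDS replicate 1 it was 6. In Parental, 2 of the 11 rose and none fell, SLC6A9 (row CCDC24), a glycine transporter, at 0.84 ± 0.14 (edgeR adjusted p = 0.000351) and SLC7A11 at 0.73 ± 0.11 (edgeR adjusted p = 5.70e-05), with a median of 0.34 beside -0.01 for all entries and 2.18% called higher. Neither Parental call was lost in any alternative run. In SGCTRL, 1 of the 11 rose and none fell, with a median of -0.06 beside 0.00 for all entries, of which 1.29% were called higher. That gene was ATF5, a relative of ATF4 (row NUP62), at 1.36 ± 0.37 (edgeR adjusted p = 0.0386). Its level was low, at 10.4 ± 0.856 CPM in LPDS and 4.14 ± 2.11 CPM in FBS (SD, n = 3 each).

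**Figure D4:**
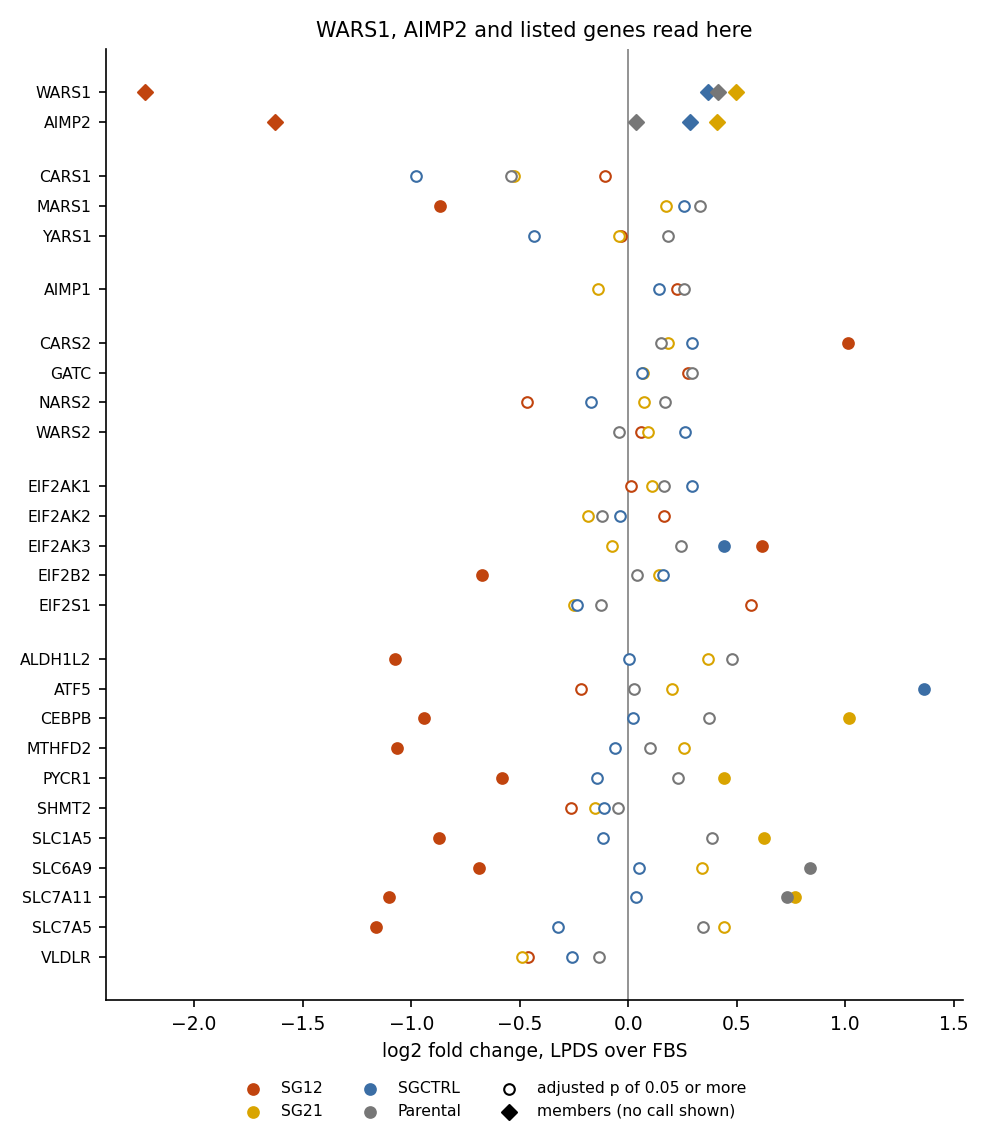
Log2 fold change of LPDS over FBS in each line for WARS1 and AIMP2 (diamonds) and for the listed genes read here, grouped as cytosolic synthetases, scaffold, mitochondrial synthetases, eIF2 genes and ATF4 or amino acid response genes, with filled circles for an edgeR adjusted p under 0.05. In the last group SG12 lies left of 0 for all 11 genes, down to -1.16, and WARS1 and AIMP2 in SG12 lie further left, at -2.23 and -1.63.

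Other known inputs to WARS1 could hardly be read. Of 30 interferon response genes only SP110 (row ENSG00000225963), a nuclear body protein, was read. It averaged 4.44 ± 2.61 CPM in SG12 in LPDS and 0.903 ± 0.628 CPM in SG12 in FBS (SD, n = 3 each), so its called fold change of 2.22 ± 0.55 (edgeR adjusted p = 0.00276) rests on few reads, and the call was lost without SG12 LPDS replicate 3 (edgeR adjusted p = 0.0628). Of 12 genes of tryptophan transport and breakdown only SLC7A5, given above, was read.

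WARS1 and AIMP2 had similar level profiles across the 8 group means, with a Pearson r of 0.914 and a Spearman rho of 0.810 between them on log2 CPM. Both genes were chosen for the same fall in SG12 relative to SGCTRL, so their likeness follows in part from that choice and is not a result. The group means share the same libraries, and SG12 in FBS and SG12 in LPDS set the ends of both profiles. The genes ranked below by likeness to them are subject to the same limits, so all these values are a description. Among 2860 genes read by source, EXOSC8 (r = 0.940), a subunit of the RNA exosome, NFE2L1 (0.940), a transcription factor of proteasome genes, SARNP (0.931), FAM86C1P (0.928) and CRISPLD1 (0.920) had the profiles most like that of WARS1. TMEM209 (0.972), SNCAIP (0.963), EXOSC8 (0.956), C5orf34 (0.955) and ATG101 (0.952), an autophagy initiation protein, had those most like that of AIMP2. EXOSC8 (row SUPT20H) averaged 124 CPM in SG12 in LPDS and 277 CPM in SG12 in FBS, with means from 142 to 203 CPM in the other 6 groups. By Spearman rho the first 5 for WARS1 were EOLA2, HCST, SRR, VSIG10 and RAB23, none of them among the 5 by Pearson, and for AIMP2 they were SNCAIP, ATG101, EXOSC8, DIS3L and STRN4, of which 3 were among the 5 by Pearson.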

How the data were processed

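Total RNA of 24 libraries was sequenced. Per the labels' protocols, 100 ng of RNA went into Illumina's stranded total RNA kit with ribosomal depletion, which keeps strand. Per the submitters' processing notes, STAR, bcl2fastq and hg38 were used, with no versions. The authors deposited raw counts of reads per gene entry. The counting program and annotation are not given in the sources used here. Reads on no gene (94.3% to 94.6% of unique reads) and ambiguous reads stayed out of library sizes.

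Most counts lie on the other strand. Each of 56807 entries found in GENCODE 29 therefore took as its source the opposite-strand gene with at least 50 shared exon bases and 80% of all such overlap, which 10152 entries had. Source genes were used above 5.74 CPM, the level below which 90% of 9466 protein-coding entries without an opposite gene lie. Where genes overlap, an entry can mix their reads.

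The test was edgeR 4.0.16 in R 4.3.3 (quasi-likelihood F test, TMM, filterByExpr, 12822 entries, a mean per group over 24 libraries, Benjamini-Hochberg adjustment over all entries), with a call at an adjusted p under 0.05. The SE is the size of the log2 fold change divided by the square root of F. Scripts were tested on simulated data. The 2 genes and the gene lists were chosen with earlier results of these data known. By rule the text names both genes, all entries over them, TMEM97, up to 4 called genes of each list by adjusted p in SG21, Parental and SG12, the 5 genes most alike in profile and the neighbours in rank. Some listed genes are not reported here and stay out of the list counts. ANKRD61, CARS1, YARS1, AIMP1, WARS2, EIF2AK2, ATF5 and the order by Spearman rho were added with their values in view. The results were recomputed with DESeq2 1.42.0 (size factors, Wald test), no count filter or a stricter one, the groups of the comparison alone, a replicate block, a term for the library split (ambiguous reads under 2.4%), the leaked share as a covariate, all unique reads as library size, log2 of CPM + 1, and each library left out. Setting SG21 in LPDS as its 1 library outside the split was chosen after seeing the data.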

Additional observations from a re-analysis of the deposited data

Results flagged for a closer look

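The LPDS responses of WARS1 and AIMP2 in SG12 run opposite to those of other lines, with every SG12 library in LPDS below every SG12 library in FBS and every library of the other line the reverse. For WARS1 the log2 response in SG12 minus that of the other line was -2.72 for SG21, -2.59 for SGCTRL and -2.64 for Parental. For AIMP2 it was -2.04 for SG21 and -1.91 for SGCTRL. The AIMP2 groups of Parental overlapped, so that line is not among them. These differences were not tested, since the 2 genes were chosen on them.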

How the results depend on the processing

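With the library split as a term, or with SG21 in LPDS as its 1 library outside the split, the LPDS response in SG21 was 0.483 or 0.476 for WARS1 and 0.359 or 0.353 for AIMP2, and AIMP2 in SG21 over Parental in LPDS was 0.308 or 0.310, none called. CEBPB in SG21 turned to -0.184 or -0.191, entries called came to 71 or 70 in SG21, 653 or 608 for SG21 over Parental in LPDS and 6 or 6 for the response of SG21 minus Parental, and list genes called in SG21 to 1 or 1. With the leaked share as a covariate, WARS1 was 0.177 in Parental (not called), -0.386 for SG21 over Parental in FBS (called), -2.43 for the response of SG12 minus SGCTRL, -0.806 for SG12 over SGCTRL in LPDS, -0.791 and 1.49 for SG12 over Parental in LPDS and in FBS, and -0.644 for SG12 over SG21 in LPDS. AIMP2 in SG21 over Parental in FBS turned to 0.0422, and to 0.0139 with no count filter. Entries called were then 71 in Parental, 788 for SG21 over Parental in FBS and 38 for SG21 minus Parental, with 2 list genes in SG21. With the groups of the comparison alone WARS1 in Parental was 0.430 (not called), and entries called were 223 in Parental, 654 in SGCTRL and 48 for SG21 minus Parental, with 2 list genes in SG21. DESeq2 size factors and its Wald test gave AIMP2 in Parental as -0.0058 and -0.0059. For SG21 minus Parental 264 entries were called with no filter and 213 by the Wald test, and 4 list genes were called in Parental with no filter. The causes were not tested.

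No clear pairing of libraries by replicate number was seen: deviations of same-numbered LPDS and FBS libraries correlated at -0.115 to 0.164. Libraries with different numbers were not compared, so a weak pairing cannot be told from none. With a replicate block 161 entries, against 107 without it, were called for SG21 minus Parental, and no call of WARS1 or AIMP2 changed.

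Leaving out each library in turn gave these lowest and highest values. For WARS1 they were 0.319 and 0.466 in Parental, -0.0148 (without SG21 FBS replicate 2) and 0.170 for SG21 minus Parental, -2.74 and -2.60 for SG12 minus SGCTRL, -2.37 and -2.24 in SG12, 0.298 and 0.422 in SGCTRL, 1.61 and 1.72 for SG12 over SGCTRL in FBS, -0.228 and -0.109 for SG21 over SGCTRL in LPDS, -0.358 and -0.205 in FBS, 1.80 and 2.03 for SG12 over SG21 in FBS, and 0.0321 and 0.206 for SG21 minus SGCTRL. For AIMP2 they were 0.336 and 0.45 in SG21, -0.0707 and 0.201 in Parental (also -0.0095 without FBS replicate 1), 0.263 and 0.389 for SG21 over Parental in LPDS, -0.118 and 0.148 in FBS (also 0.0537 without SG21 FBS replicate 2), -2.06 and -1.91 for SG12 minus SGCTRL, -1.78 and -1.63 in SG12, 1.53 and 1.67 for SG12 over SGCTRL in FBS, and 1.20 and 1.41 for SG12 over SG21 in FBS. Entries called ran from 214 to 827 in SG21, 159 to 877 in Parental, 121 to 180 in SGCTRL, 1946 to 3174 for SG21 over Parental in FBS and 30 to 382 for SG21 minus Parental, and list genes called from 1 to 6 in SG21 and 2 to 4 in Parental. Some values from all libraries lay outside these ranges, smaller in size than any value with a library left out. For WARS1 they were -2.595 for SG12 minus SGCTRL, -2.226 in SG12 and 1.564 for SG12 over SGCTRL in FBS. For AIMP2 they included -1.629 in SG12 and 1.512 for SG12 over SGCTRL in FBS. The cause was not tested. Leaving out a library can also move the median of all entries, which for SG12 over SGCTRL in FBS was 0.0795 without SGCTRL FBS replicate 2 and -0.0291 with all libraries.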
